A study of Homo sapiens with 6 samples.

Results

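The Hippo core set analysed here holds 10 genes, namely the kinase genes STK3, STK4, LATS1 and LATS2, the scaffold gene SAV1, the coactivator genes YAP1 and WWTR1, and the transcription factor genes TEAD1, TEAD3 and TEAD4. They were taken by symbol from the 62700 genes of the count table, and 10 of the 10 passed the filter on low counts. RNA was sequenced from KYSE510, an established line of oesophageal squamous cell carcinoma, in 3 libraries carrying a control shRNA (shControl, genotype given as WT) and 3 carrying an shRNA to what is labelled RNH1 (shRNH1), a knockdown made to induce R-loops. All cells were grown in serum-containing medium, the labels give no time after knockdown, and they name no shRNA sequence. How the biological replicates were kept apart is not described, and p-values therefore cover only the spread among these libraries, which may be technical.

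The Hippo pathway is a kinase cascade that restrains growth. STK4 and STK3 encode MST1 and MST2, which with the scaffold SAV1 phosphorylate and activate LATS1 and LATS2. The LATS kinases phosphorylate YAP (YAP1) and its relative TAZ (WWTR1), which are then held in the cytoplasm or degraded. Unphosphorylated YAP and TAZ enter the nucleus, bind TEAD proteins on DNA and raise genes such as CCN1, CCN2 and ANKRD1. Some targets, LATS2 and AMOTL2 among them, encode inhibitors of YAP and form a feedback loop. YAP1 is amplified in some squamous carcinomas. Read counts report mRNA, not phosphorylation or location of these proteins.

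The series text calls its target a ribonuclease, read here as RNASEH1, which encodes the enzyme that cleaves RNA paired with DNA. RNASEH1 was counted 1357, 1344 and 1015 times under shControl and 251, 247 and 232 times under shRNH1. Library totals were 40225486 to 41103220 counts in shControl and 31394687 to 33421217 in shRNH1, so depth moved with the groups. With every library thinned to the smallest total, an alternative chosen after seeing the data, the same number of core genes was called as in the full data, 5 lower and 0 higher. By edgeR's quasi-likelihood fit, 5424 of the 19682 tested genes (27.6%) had a Benjamini-Hochberg adjusted p under the threshold of 0.05, 3006 higher (15.3%) and 2418 lower (12.3%). With library size alone in place of TMM factors the split was 4065 higher and 1433 lower, and the median log2 fold change of all genes moved from 0.02 to 0.13. Squamous markers were present, with 8 of 8 at a testable level, 2 higher and 3 lower. Their summed level was 1251 to 1563 CPM (counts scaled to library size, TMM-normalised) in shControl and 1300 to 1339 in shRNH1. SFN and KRT17 carried most of that sum. The 3 lower were KRT5 (log2 fold change -1.33), KRT14 (-1.40) and SFN (-0.37). SOX2 (2.68, from 0.748 to 4.78 CPM) and PERP (0.54) were the 2 higher. The 7 fibroblast markers summed to 63.2 to 72.7 CPM in shControl and 112 to 134 in shRNH1, with 1 of the 3 testable markers higher and 1 lower. COL1A1 carried most of that sum, while COL1A2 and DCN were listed at 0 in every library. The 7 leukocyte markers summed to 5.52 to 7.06 and 7.37 to 9.64 CPM, with 1 of 2 testable markers, ITGAM, higher (2.27, from 0.154 to 0.757 CPM). The 5 endothelial markers summed to 20.01 to 21.8 and 18.6 to 20.8 CPM, with 1 of 3 testable markers, PECAM1, higher (0.51), and CDH5, which carried most of the sum, not past the threshold (-0.26). The part of these other markers in the results was not tested. In RNA of whole cultures, fewer cells of a kind and less RNA per cell cannot be told apart.

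Of the 10 core genes, 5 fell in the shRNH1 libraries and 0 rose by this edgeR test, adjusted over all genes. LATS2, TEAD4, TEAD1, STK3 and SAV1 made up the 5, while YAP1, WWTR1, TEAD3, LATS1 and STK4 did not pass. Over all genes tested, 12.3% were called lower, 15.3% higher and 27.6% either way. At an unadjusted p under 0.05, 0 core genes were higher, and DESeq2 and limma-voom called 0 higher and 5 lower each. The median log2 fold change of the 10 was -0.27, beside 0.02 over all genes tested. The same 5 genes had no overlap between groups, against 18.6% of all genes tested that lay wholly lower in shRNH1.

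**Figure D1:**
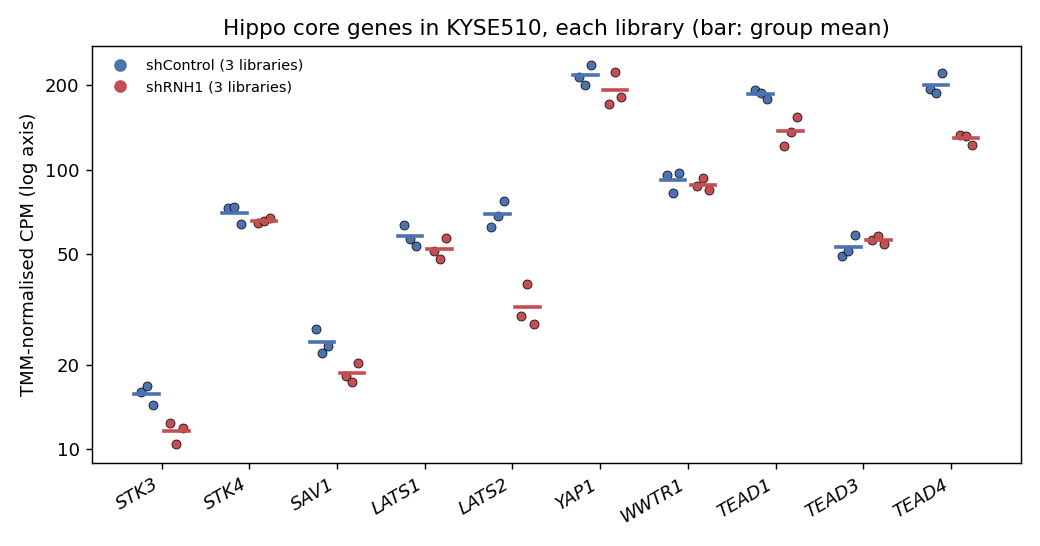
TMM-normalised CPM of the 10 Hippo core genes in each of the 6 libraries (log axis), with shControl in blue, shRNH1 in red, 1 point per library and a bar at the group mean. The groups do not overlap for STK3, SAV1, LATS2, TEAD1 and TEAD4; LATS2 lies between 27.9 and 38.8 CPM in shRNH1 and between 62.1 and 77.3 in shControl.

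Among the upstream kinases, STK3 and its partner SAV1 fell by modest amounts and STK4 did not pass. STK3 (MST2; ENSG00000104375; GRCh38 chromosome 8, 98371228 to 98942827, minus strand) measured 16.0, 16.8 and 14.4 CPM under shControl and 12.4, 10.5 and 11.9 CPM under shRNH1. All shRNH1 libraries lay below all shControl libraries, and the log2 fold change came to -0.44 (SE 0.115; Benjamini-Hochberg adjusted p = 0.00477, edgeR). With library size alone the STK3 change was -0.33 and did not pass (adjusted p = 0.0569, edgeR). SAV1 (ENSG00000151748; chromosome 14, 50632058 to 50668331, minus strand), the scaffold that joins the MST and LATS kinases, measured 26.8, 22.0 and 23.4 CPM in shControl and 18.3, 17.4 and 20.3 CPM in shRNH1. Its groups also did not overlap, and its log2 fold change came to -0.37 (SE 0.108; adjusted p = 0.0111, edgeR). The SAV1 call was lost with library size alone (-0.25, adjusted p = 0.111), without shControl replicate 1 (-0.28, adjusted p = 0.103) and without shRNH1 replicate 1 (-0.35, adjusted p = 0.0581), all by edgeR. Of its 5630 exon bases, 840 are shared with ATL1 on the other strand, which had 240 counts over the 6 libraries beside 4722 for SAV1.

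STK4 (MST1; ENSG00000101109; chromosome 20, 44966474 to 45079959, plus strand) measured 72.7, 73.6 and 63.7 CPM in shControl and 64.3, 65.4 and 67.0 CPM in shRNH1, and the groups overlapped. The shRNH1 level was 93.6% of the shControl level, with a 95% interval of 82.1% to 107% from the fit (adjusted p = 0.491, edgeR), and the small difference turned its sign with library size alone (0.01). The ratio of STK3 to STK4 per kilobase of exon, which does not depend on scaling between libraries, was 0.158, 0.165 and 0.162 in shControl and 0.139, 0.115 and 0.128 in shRNH1. It did not overlap between groups (exact two-sided permutation p = 0.1, the smallest that 3 against 3 libraries allow). Adjusted over the 6 ratios computed, the p of this exact test was 0.15. STK3 made up 13.9% ± 0.259 of the summed MST mRNA per kilobase under shControl and 11.3% ± 0.927 under shRNH1 (SD, n = 3 each). The size of these shares depends on the length used. STK3 has 12597 merged exon bases but 5333 in its longest transcript, and STK4 has 9075 and 6342.

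Of the LATS kinase genes, 1 fell. LATS2 (ENSG00000150457; chromosome 13, 20973032 to 21061547, minus strand) showed the largest change of the 10 genes, and LATS1 did not pass. LATS2 received 2417, 2810 and 2847 reads under shControl and 1017, 1363 and 922 under shRNH1, which is 62.1, 68.0 and 77.3 CPM against 29.99, 38.8 and 27.9 CPM. Every shRNH1 library lay well under every shControl library, with replicate 2 the highest of the shRNH1 libraries. The log2 fold change came to -1.10 (SE 0.113; adjusted p = 2.96e-08, edgeR), which left 46.7% of the shControl level (95% interval 39.7% to 54.9%). Over the 17 alternative settings the LATS2 change ran from -1.25 to -0.98 and passed in 17.

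LATS1 (ENSG00000131023; chromosome 6, 149658153 to 149718256, minus strand) measured 63.5, 56.5 and 53.3 CPM in shControl and 51.3, 47.9 and 57.0 CPM in shRNH1, with overlap between groups. Its log2 fold change came to -0.15 (SE 0.0978; adjusted p = 0.277, edgeR), with an interval of 78.4% to 104% of the shControl level. The ratio of LATS1 to LATS2 per kilobase was 0.660, 0.537 and 0.445 under shControl but 1.10, 0.796 and 1.32 under shRNH1. The geometric mean of the ratio was 1.94-fold higher without overlap between groups. The exact two-sided permutation test gave p = 0.1, the smallest that 3 against 3 libraries allow (adjusted p = 0.15 over the 6 ratios computed). LATS2 held 64.8% ± 4.49 of the summed LATS mRNA per kilobase in shControl and 48.8% ± 6.34 in shRNH1, while the sum itself went from 19.1 ± 0.826 to 11.8 ± 0.619 CPM per kilobase (SD, n = 3 each).

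The mRNAs of the coactivators YAP and TAZ did not pass the test. YAP1 (ENSG00000137693; chromosome 11, 102110461 to 102233423, plus strand) measured 214, 201 and 237 CPM in shControl and 171, 223 and 182 CPM in shRNH1. Replicate 2 of shRNH1 lay inside the shControl range and the other two lay below it. The shRNH1 level was 88.3% of the shControl level (95% interval 76.3% to 102%; log2 fold change -0.18, SE 0.103, adjusted p = 0.212, edgeR). Without shRNH1 replicate 2 the YAP1 change was -0.30 and passed (adjusted p = 0.0297, edgeR), whereas over the other 16 alternatives it did not.

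WWTR1 (TAZ; ENSG00000018408; chromosome 3, 149517235 to 149736714, minus strand) measured 95.5, 82.3 and 97.1 CPM in shControl and 87.3, 92.9 and 84.5 CPM in shRNH1, and the groups overlapped. The shRNH1 level was 96.3% of the shControl level (95% interval 84.3% to 110%; adjusted p = 0.723, edgeR), and the sign of the difference changed in 2 of 17 alternatives, library size alone (0.06) and the offset for expression level (0.01). The ratio of YAP1 to WWTR1 per kilobase was 2.99, 3.27 and 3.26 in shControl and 2.62, 3.20 and 2.88 in shRNH1, with overlap between groups and p = 0.2 in the exact two-sided permutation test (adjusted p = 0.24 over 6 ratios). The sum of both coactivator mRNAs was 45.4 ± 3.70 CPM per kilobase under shControl and 40.96 ± 4.78 under shRNH1 (SD, n = 3 each).

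**Figure D2:**
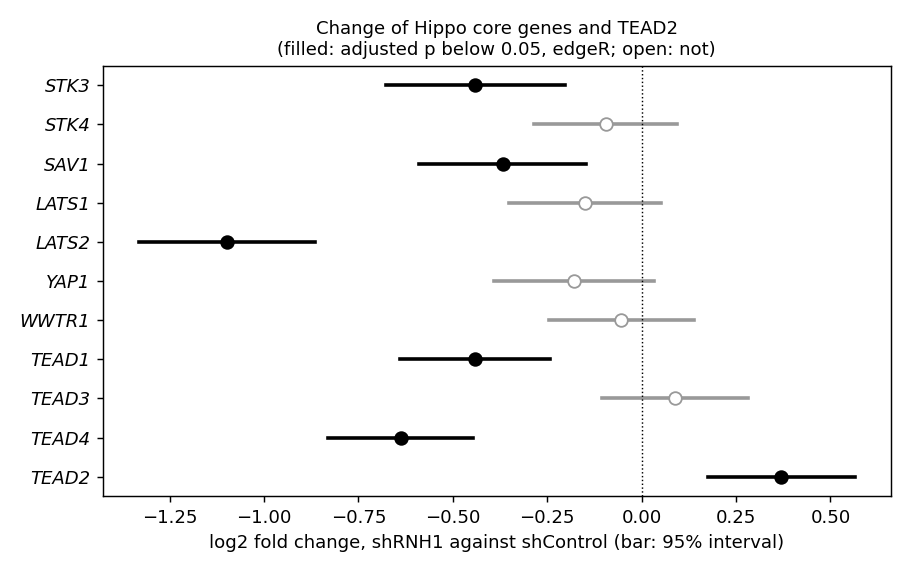
Log2 fold change of shRNH1 against shControl for the 10 core genes and TEAD2, with bars for the 95% interval of the fit; filled points passed edgeR's test at an adjusted p below 0.05 and open points did not. LATS2 lies furthest to the left at -1.10, and TEAD2 at 0.37 is the only filled point to the right of 0.

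The TEAD genes moved in different directions. TEAD4 (ENSG00000197905; chromosome 12, 2959330 to 3040673, plus strand) measured 195, 188 and 221 CPM in shControl and 133, 132 and 123 CPM in shRNH1. The 3 shRNH1 values lay close together and below all shControl values, and the log2 fold change came to -0.64 (SE 0.0934; adjusted p = 8.13e-06, edgeR), or 64.2% of the shControl level. TEAD1 (ENSG00000187079; chromosome 11, 12674591 to 12944483, plus strand) measured 192, 188 and 179 CPM in shControl and 121, 137 and 154 CPM in shRNH1. The groups did not overlap although the shRNH1 libraries were spread, and the log2 fold change came to -0.44 (SE 0.0969; adjusted p = 0.00102, edgeR). Both calls held in 17 of 17 alternatives.

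TEAD3 (ENSG00000007866; chromosome 6, 35473597 to 35497076, minus strand) measured 48.9, 50.9 and 58.2 CPM in shControl and 56.0, 57.9 and 54.2 CPM in shRNH1, and the groups overlapped. Its shRNH1 level was 106% of the shControl level (95% interval 92.9% to 122%; adjusted p = 0.5396, edgeR). TEAD2, the TEAD gene outside the core set, rose from 31.6, 32.7 and 32.5 CPM to 44.0, 38.6 and 42.5 CPM. Its shRNH1 libraries all lay above its shControl libraries (log2 fold change 0.37, SE 0.0946, adjusted p = 0.00406, edgeR).

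The make-up of TEAD mRNA was computed per kilobase, and the size of these shares depends on the length used. TEAD4 has 2272 merged exon bases and TEAD1 has 10279. In CPM without length, TEAD4 and TEAD1 averaged 201 and 186 in shControl and 129 and 137 in shRNH1. TEAD4 was the most abundant TEAD mRNA per kilobase in every library, with 65.6% ± 1.44 of the TEAD sum under shControl and 55.4% ± 1.73 under shRNH1 (SD, n = 3 each). TEAD3 went from 12.8% ± 0.503 to 17.9% ± 0.391, TEAD2 from 8.05% ± 0.477 to 13.6% ± 0.971, and TEAD1 from 13.5% ± 1.27 to 13.0% ± 1.73. The TEAD sum was 135 ± 8.45 CPM per kilobase in shControl and 103 ± 1.40 in shRNH1. The ratio of TEAD3 to TEAD4 per kilobase was 0.187, 0.202 and 0.197 in shControl and 0.314, 0.326 and 0.3296 in shRNH1. Its geometric mean was 1.66-fold higher, with the replicates of each group close together. The ratio of TEAD1 to TEAD3 was 0.911 to 1.16 in shControl and 0.642 to 0.843 in shRNH1. Neither of these 2 ratios overlapped between groups (exact two-sided permutation p = 0.1 and adjusted p = 0.15 for each), whereas TEAD1 to TEAD4 overlapped (p = 0.4 in the same exact test).

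**Figure D3:**
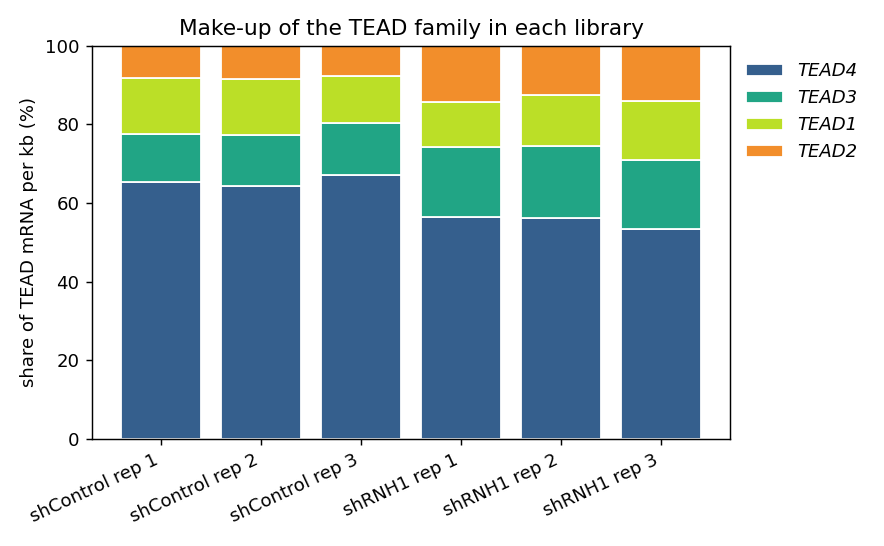
Share of each TEAD gene in the TEAD mRNA of each library, in percent of the summed CPM per kilobase of exon, as stacked bars for the 3 shControl and 3 shRNH1 libraries. The TEAD4 part averages 65.6% in shControl and 55.4% in shRNH1, and the TEAD3 and TEAD2 parts are wider in all 3 shRNH1 libraries.

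**Figure D4:**
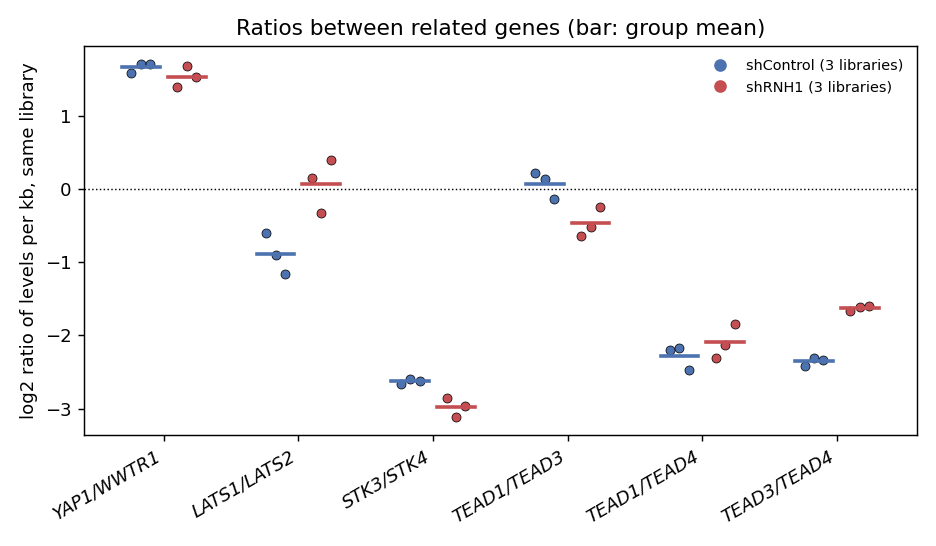
Log2 ratio of the levels per kilobase of 6 pairs of related genes, each taken within a library, with 1 point per library and a bar at the group mean. LATS1/LATS2 and TEAD3/TEAD4 lie higher in shRNH1 without overlap, STK3/STK4 and TEAD1/TEAD3 lie lower without overlap, and YAP1/WWTR1 and TEAD1/TEAD4 overlap.

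Levels were also ordered per kilobase of merged exons over the 10 core genes and TEAD2. In shControl TEAD4 stood first at 88.6 ± 7.50 CPM per kilobase, followed by YAP1 at 34.5 ± 2.86, TEAD1 at 18.1 ± 0.664, TEAD3 at 17.3 ± 1.61, LATS2 at 12.4 ± 1.37 and WWTR1 at 10.9 ± 0.968 (SD, n = 3). TEAD2 (10.8), STK4 (7.71), LATS1 (6.69), SAV1 (4.28) and STK3 (1.25) followed. TEAD1 and TEAD3, LATS2 and WWTR1, WWTR1 and TEAD2, and STK4 and LATS1 were neighbours whose libraries overlapped. In shRNH1 TEAD4 (56.9 ± 2.54) and YAP1 (30.5 ± 4.33) stayed first and second, and LATS2 stood at rank 9 with 5.78 ± 1.04 CPM per kilobase, next to LATS1 at 6.02 ± 0.531, whose libraries it overlapped. With the length of the longest transcript in place of merged exons, LATS2 went from rank 7 to rank 10, and TEAD4 and YAP1 were first and second in both groups. WWTR1 then stood at rank 4 in both groups, beside rank 6 by merged exons.

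Related genes shared few exact runs of 50 bases. Runs with a mismatch were not counted, so the similarity of related genes was not measured. Of all runs of 50 bases in their annotated transcripts, TEAD3 and TEAD4 shared 7, and no other pair among these genes shared any. Runs shared with other genes made up 8.74% for YAP1, 8.98% for WWTR1, 4.22% for LATS1 and 18.4% for SAV1, in each case led by a gene on the other strand, and 0 of 5526 for LATS2. For TEAD2, outside the core set, 7% were shared with CD37. Whether reads of CD37 added to the TEAD2 counts was not tested. Whether the counting used strand is not stated in the sources. The antisense genes at YAP1, WWTR1, LATS1 and STK3 had 0, 423, 314 and 14 counts in all, beside 44991, 19705, 12075 and 3027 for the genes themselves.

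Among genes that YAP and TEAD are known to activate, most fell. The list of 22 held LATS2 and was drawn up with results of these libraries known, so it is no independent evidence of a direction. Among the 21 tested, 18 fell while 1 rose, and the median log2 fold change was -0.77, beside 12.3% lower, 15.3% higher and a median of 0.02 over all genes tested. The tissue factor gene F3 (-2.46), the kinase gene NUAK2 (-1.21) and AMOTL2 were, besides CCN1, the members with the smallest p. CCN1, which encodes a matricellular protein, measured 242, 287 and 308 CPM in shControl and 53.3, 54.8 and 51.2 in shRNH1. CCN2 was scarcer, with 200, 272 and 238 counts in shControl and 54, 38 and 31 in shRNH1. The log2 fold changes were -2.39 for CCN1 and -2.33 for CCN2, and LATS2 at -1.10 lay between these and the list median. IGFBP3 (0.63, adjusted p = 1.53e-04, edgeR) was the member that rose and was named after its value was seen.

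TEAD proteins bind the M-CAT element, searched here as GGAATG on either strand, that is GGAATG or CATTCC, in the 250 bases before the RefSeq start of each gene (GRCh38.p14). It was present in 11.9% of 35116 promoters, counted over every promoter entry. With 1 entry taken per gene, it was present in 1 of the 7 core genes with an entry and in 6 of 16 target genes with an entry. The 3 sequences below set the classical target CCN2 beside YAP1, which did not pass, and LATS2, which fell the most of the core genes. They are written 5′ to 3′ on the strand of the gene with the element in capitals.

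CCN2, chr6:131951373-131951622, minus strand: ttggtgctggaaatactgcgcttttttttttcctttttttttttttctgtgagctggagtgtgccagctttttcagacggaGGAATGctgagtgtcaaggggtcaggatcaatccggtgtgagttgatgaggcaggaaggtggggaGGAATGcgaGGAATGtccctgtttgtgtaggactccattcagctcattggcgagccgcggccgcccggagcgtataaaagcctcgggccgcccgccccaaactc
YAP1, chr11:102110197-102110446, plus strand: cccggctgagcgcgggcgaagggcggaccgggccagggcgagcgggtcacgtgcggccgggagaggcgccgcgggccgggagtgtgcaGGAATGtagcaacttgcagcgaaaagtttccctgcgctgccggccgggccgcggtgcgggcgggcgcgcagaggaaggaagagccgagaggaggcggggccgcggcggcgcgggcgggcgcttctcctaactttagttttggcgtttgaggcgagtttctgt
LATS2, chr13:21061587-21061836, minus strand: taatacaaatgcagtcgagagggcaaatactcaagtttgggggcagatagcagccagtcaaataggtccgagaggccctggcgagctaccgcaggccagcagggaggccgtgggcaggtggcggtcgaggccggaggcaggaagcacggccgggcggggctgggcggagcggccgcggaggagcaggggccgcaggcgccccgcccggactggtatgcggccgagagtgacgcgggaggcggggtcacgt

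CCN2 held 3 copies, which begin 169, 104 and 95 bases before the start, YAP1 held 1 that begins 162 bases before it, and these letters were not in the LATS2 window. A match is a description of the letters only, and 1 start per core or target gene was searched.

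The wider pathway was described by role, from 77 genes on 6 lists that hold no core gene. These lists too were chosen with earlier results of these data known, so they are no independent evidence of a direction. Of 69 tested, 8 rose and 21 fell, so 42.0% passed, beside 27.6% of all genes tested. The median log2 fold change was -0.11. AMOTL2 and PTPN14, which both fell, are on the target list too, and without them 8 of 67 rose and 19 fell (40.3%), with a median of -0.07.

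The genes listed as activators or regulators of the kinase module moved both ways. Of 22 tested, 5 rose and 3 fell (median 0.12), so 36.4% passed, beside 27.6% of all genes tested. FRMD6 (-0.87), a FERM-domain protein, WWC1 (-0.60), which encodes the scaffold KIBRA, and NF2, which encodes merlin, made up the 3 that fell, and NF2 went from 419 ± 28.8 to 330 ± 12.8 CPM (SD, n = 3 each). The NF2 change (-0.35) did not pass with the offset for expression level (-0.20, adjusted p = 0.118) or without shRNH1 replicate 3 (-0.31, adjusted p = 0.0541), both by edgeR. The kinase gene MAP4K1 (2.36) and RASSF6 (2.14) rose from a low level. MAP4K1 had 18, 19 and 11 counts in shControl and 75, 89 and 52 in shRNH1, and RASSF6 had 15, 10 and 5 against 50, 36 and 30. MOB1A, which encodes the LATS coactivator, measured 119 ± 14.2 and 124 ± 10.7 CPM and did not pass (log2 difference 0.05, adjusted p = 0.739, edgeR).

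Inhibitors of the kinase module had 6 of 16 lower (37.5%, beside 12.3% of all genes tested) and 0 higher (beside 15.3%) by edgeR's test. The median of these 16 was -0.13. At an unadjusted p under 0.05, 1 was higher, DESeq2 and limma-voom called 0 higher, and 2 were higher with library size alone and 1 with the offset for expression level. AJUBA and ZYX, LIM-domain proteins of which AJUBA restrains LATS, stood in front. AJUBA measured 182, 185 and 202 CPM in shControl and 78.1, 87.2 and 77.8 in shRNH1, and ZYX 499, 461 and 538 against 274, 257 and 259. The log2 fold changes were -1.23 and -0.92, and WTIP (-0.51), a further LIM protein, and MOB4 (-0.60), a subunit of the STRIPAK phosphatase complex that acts on the MST kinases, also fell.

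Partners that bind YAP or TAZ had 7 of 13 lower (53.8%, beside 12.3% of all genes tested) and 0 higher (beside 15.3%). Their median was -0.31, and 0 were higher at an unadjusted p under 0.05, by DESeq2 or by limma-voom. AMOTL2, an angiomotin that holds YAP at junctions and in the cytoplasm, measured 379, 396 and 482 CPM in shControl and 112, 137 and 113 in shRNH1. Its log2 fold change was -1.80, the largest fall of this list, and AMOTL1 (-0.39), the tyrosine phosphatase gene PTPN14 (-0.60) and the tight junction gene TJP1 (-0.61) also fell. With the offset for expression level 4 of the 13 were lower.

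Polarity and cadherin genes had 2 higher and 2 lower of 9 tested (median -0.04), so 44.4% passed, beside 27.6% of all genes tested. LLGL2 (0.45) and PATJ (0.35) rose, and SCRIB (-0.53) and the protocadherin gene FAT4 (-0.49) fell. FAT4 missed the threshold in 5 of 17 alternatives, namely library size alone, DESeq2 and without shControl replicate 1, shRNH1 replicate 2 or shRNH1 replicate 3 (-0.38 to -0.51). Of the 6 genes for the degradation of YAP and TAZ, the casein kinase genes CSNK1E (-0.37) and CSNK1D (-0.36) fell. That is 33.3% lower, beside 12.3% of all genes tested. Among the 6, 0 rose, beside 15.3% of all genes tested, and 0 were higher at an unadjusted p under 0.05, by DESeq2 or limma-voom. With the offset for expression level CSNK1D did not pass (-0.24, adjusted p = 0.0575, edgeR). VGLL3, a TEAD cofactor, had 139, 125 and 170 counts in shControl and 48, 110 and 78 in shRNH1. In CPM VGLL3 overlapped between groups, with 3.57, 3.02 and 4.61 in shControl and 1.42, 3.13 and 2.36 in shRNH1. Its call (-0.69, adjusted p = 0.0274, edgeR) was lost without shControl replicate 3 (-0.51, adjusted p = 0.129), without shRNH1 replicate 1 (-0.44, adjusted p = 0.210) and with library size alone (-0.57, adjusted p = 0.0867). Of the 3 tested genes among TEAD2 and the VGLL cofactors, TEAD2 rose and VGLL3 fell. That is 66.7% passing, beside 27.6% of all genes tested, on a list too short to compare. Without shRNH1 replicate 2 the number lower was 2, and 2315 of all genes were lower. VGLL1 was listed at 0 in every library.

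**Figure D5:**
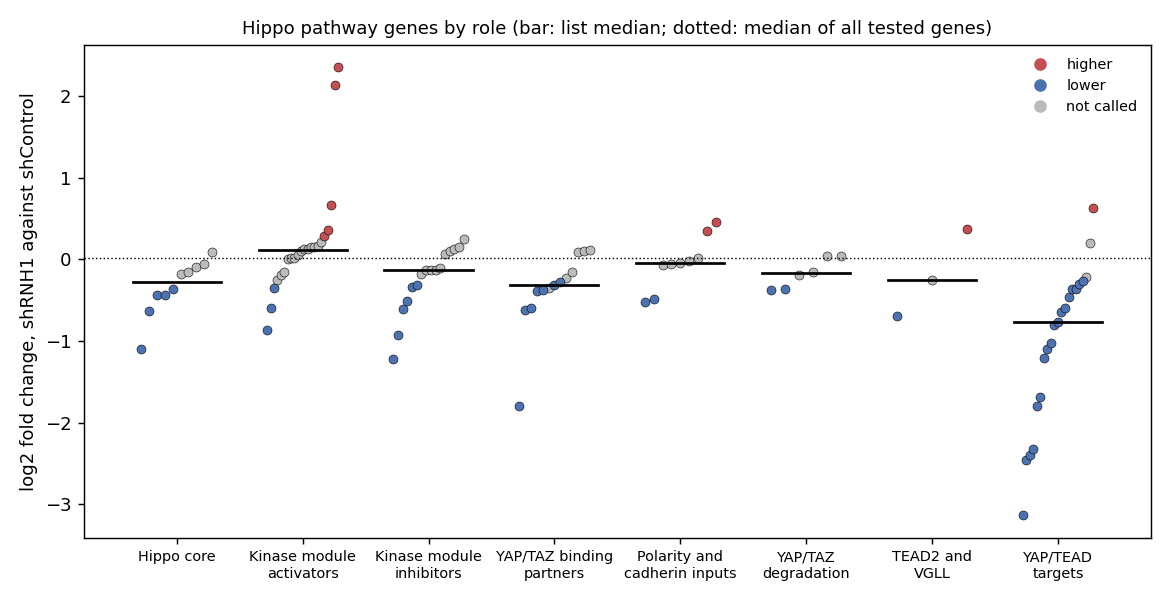
Log2 fold change of the tested genes of the Hippo core and of 7 further lists by role, with red for genes called higher, blue for lower and grey for not called, a bar at each list's median and a dotted line at the median of all genes tested (0.02). The core list has 5 blue points and 0 red, and the target list reaches from -3.14 for ANKRD1 to 0.63 for IGFBP3.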

How the data were processed

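The authors deposited raw counts per gene for poly(A) RNA of 6 KYSE510 libraries, without normalisation. The submitters' processing notes name HISAT2, StringTie, DESeq2 and GRCh38; versions, counter and use of strand are not stated there. Counts were tested with edgeR 4.0.16 (R 4.3.3), glmQLFit and glmQLFTest, TMM factors, filterByExpr and no covariate, with Benjamini-Hochberg adjustment over 19682 genes at 0.05. Standard errors come from the quasi-likelihood F statistic. The fit was tested on simulated data. Alternatives used DESeq2 1.42.0, limma 3.58.1 (voom), other factors, no filter, a stricter filter (CPM from 1 upwards in 3 or more libraries), a replicate block, offsets (splines of 5 degrees of freedom, MASS 7.3.60.0.1) and each replicate left out. Positions and lengths came from GENCODE 29, which held 58207 of 62700 IDs, and promoters from RefSeq. Named genes were the 10 core genes, RNASEH1, TEAD2, CCN1, CCN2 and up to 4 called genes per list with the smallest p; NF2, MOB1A, IGFBP3, ANKRD1 and VGLL1 were added after their values were seen. Genes and lists were chosen with earlier results of these data known. Replicate pairs differed by 5.90 to 18.5 in chi-square per gene, so none was a copy.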

Additional observations from a re-analysis of the deposited data

How the results depend on the processing

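The count of core genes called lower was 4 to 6 with a replicate left out, 5 under each other alternative except library size alone, where it was 3, and the count called higher was 0 throughout. With library size alone the number of all genes called lower was 1433, beside 2418 with TMM. With the replicate block, 5 core genes were lower and 0 higher, and 2938 and 2156 of all genes were higher and lower. Same-numbered libraries did not deviate together (r = 0.05, 0.06 and -0.05 over genes), and shControl replicate 1 deviated most like shRNH1 replicate 3 (r = 0.09), so the numbers were not taken as pairs. The block changed no call of a core, pathway or target gene named in the text. With it, 4 genes of the kinase module activator list were higher, beside 5 without it, and 17 target genes were lower, beside 18. The median of the polarity and cadherin list turned to 0.0697 with library size alone and to 0.0127 with the offset for expression level. The cause of these changes was not tested. The lowest count of a core gene was 367, in STK3.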
